A study of Mus musculus with 14 samples.

Results

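The genes described here encode the proteins that make microRNAs and the proteins through which microRNAs act. They were chosen by name: Dgcr8, Dicer1, Tarbp2, the 4 Argonaute genes (written Eif2c1 to Eif2c4 in these tables and now called Ago1 to Ago4) and Tnrc6a, Tnrc6b and Tnrc6c. All 10 were found among the 21905 features with a gene symbol in the table that holds 5 conditions side by side, called the joint table below. RNA was sequenced in 14 libraries from testes of C57BL/6 mice at least 6 weeks old, taken at successive steps of isolating the chromatoid body, the RNA and protein granule that lies beside the nucleus of round spermatids. Dissociated tubule cells were crosslinked with formaldehyde and sonicated to give the lysate (1 library), which was spun into supernatant (1) and pellet1 (1). Pellet1 was sonicated again, filtered and spun into pellet2 (1). Complexes were then brought down with an antibody against MVH, the germ cell helicase encoded by Ddx4 (MVH IP, 3 libraries pooled by the authors into 1 value). Sorted round spermatids (2 libraries pooled into 1 value, of which 1 was made from RNA above 500 bp) and sorted round spermatids labelled hetMIWI, named for the Piwi protein MIWI and with no further genotype given (1 library), were listed in tables of their own. The protocol makes the IPs from pellet2, while the sample types name lysate. IgG and ACR control IPs were not analysed here, so no background of the IP is given.

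MicroRNAs are made in steps. In the nucleus Drosha, held by the RNA-binding protein DGCR8, cuts a hairpin out of a longer transcript, and in the cytoplasm Dicer, helped by the double-stranded RNA-binding protein TRBP (Tarbp2), cuts the hairpin to a duplex. One strand is loaded onto an Argonaute protein, which pairs with a target mRNA and recruits a GW182 protein (Tnrc6a, Tnrc6b or Tnrc6c), and this in turn draws in deadenylases. In mouse spermatids Dicer and Argonaute proteins are known components of the chromatoid body. The values below are transcript levels of their genes and do not measure the proteins.

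Dgcr8 carries a microRNA hairpin in its own transcript, known as a substrate of Drosha and DGCR8, and the joint table lists it as Mir1306 beside its host gene. The RefSeq hairpin and its mature arms (GRCm38.p6, minus strand, 16:18284239-18284317, inside coding exon 2 of Dgcr8 in GENCODE M21) are shown because its values are set beside those of Dgcr8 below. Capitals mark the mature arms in the hairpin and the seed, bases 2 to 8, in each mature sequence, all 5′ to 3′. Neither seed is shared with another of the 1679 mature mouse microRNAs in that RefSeq table.
Mir1306 hairpin: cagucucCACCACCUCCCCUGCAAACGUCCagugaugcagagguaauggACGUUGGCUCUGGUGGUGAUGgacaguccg
mmu-miR-1306-5p: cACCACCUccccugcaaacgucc
mmu-miR-1306-3p: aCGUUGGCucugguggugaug

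Levels are in FPKM, read fragments scaled by transcript length and by library total. They are per length, so setting genes side by side rests on the transcript lengths used, which were not checked. Each condition has 1 value per gene, no replicate value and an unknown sequencing depth, so every difference is a size without an error. Folds are ratios of (FPKM + 1), which understates changes of low genes, with 2-fold as the size at which a gene is called. In bulk material fewer cells of a type and less RNA per cell cannot be told apart. The 8 round spermatid markers summed to between 25594 FPKM in pellet1 and 40214 in lysate, and all 8 were listed in sorted round spermatids, which listed 5 of 7 spermatocyte markers and none of the Sertoli, Leydig, spermatogonial or blood and macrophage markers. That list starts at 5 FPKM. Lysate too has a list of its own with this floor, which held 2 Sertoli, 4 Leydig, 0 spermatogonial and 2 blood and macrophage markers. The Sertoli markers found (7 of 8) summed to 52.3 FPKM in lysate and 57.6 in supernatant, 18.2 in pellet1 and 24.2 in pellet2, and 271 in MVH IP, with Amh at 0 in lysate, pellet1, pellet2 and MVH IP. The 6 spermatogonial markers summed to 12.1 FPKM in lysate and 47.4 in MVH IP, with Nanos3 at 0 in MVH IP, whereas the 6 blood and macrophage markers summed to 66.7 and 19.6, with Cd68 at 0 in MVH IP. The 7 spermatocyte markers summed to 512 FPKM in lysate and 464 in MVH IP, and the 5 Leydig markers to 282 and 213. The part of these cell types in the MVH IP values below was not tested.

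All 10 genes were detected in every condition of the joint table, at low to middling levels. In lysate they ran from 1.48 FPKM for Eif2c1 to 21.04 for Tarbp2, with Tnrc6c at 20.7 and Dgcr8 at 11.9. Below these stood Eif2c4 at 7.53, Eif2c2 at 5.51, Tnrc6b at 5.13, Tnrc6a at 3.64, Dicer1 at 3.28 and Eif2c3 at 2.03 FPKM. The mRNAs of the helper proteins TRBP and DGCR8 thus stood above those of Dicer and of every Argonaute. In MVH IP of the joint table the order was different, with Tnrc6c, Tnrc6b, Dgcr8 and Tnrc6a on top and Dicer1 last, but in the separate MVH IP table, which lists 5 of the 10, Tarbp2 was on top at 81.7 FPKM.

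**Figure D1:**
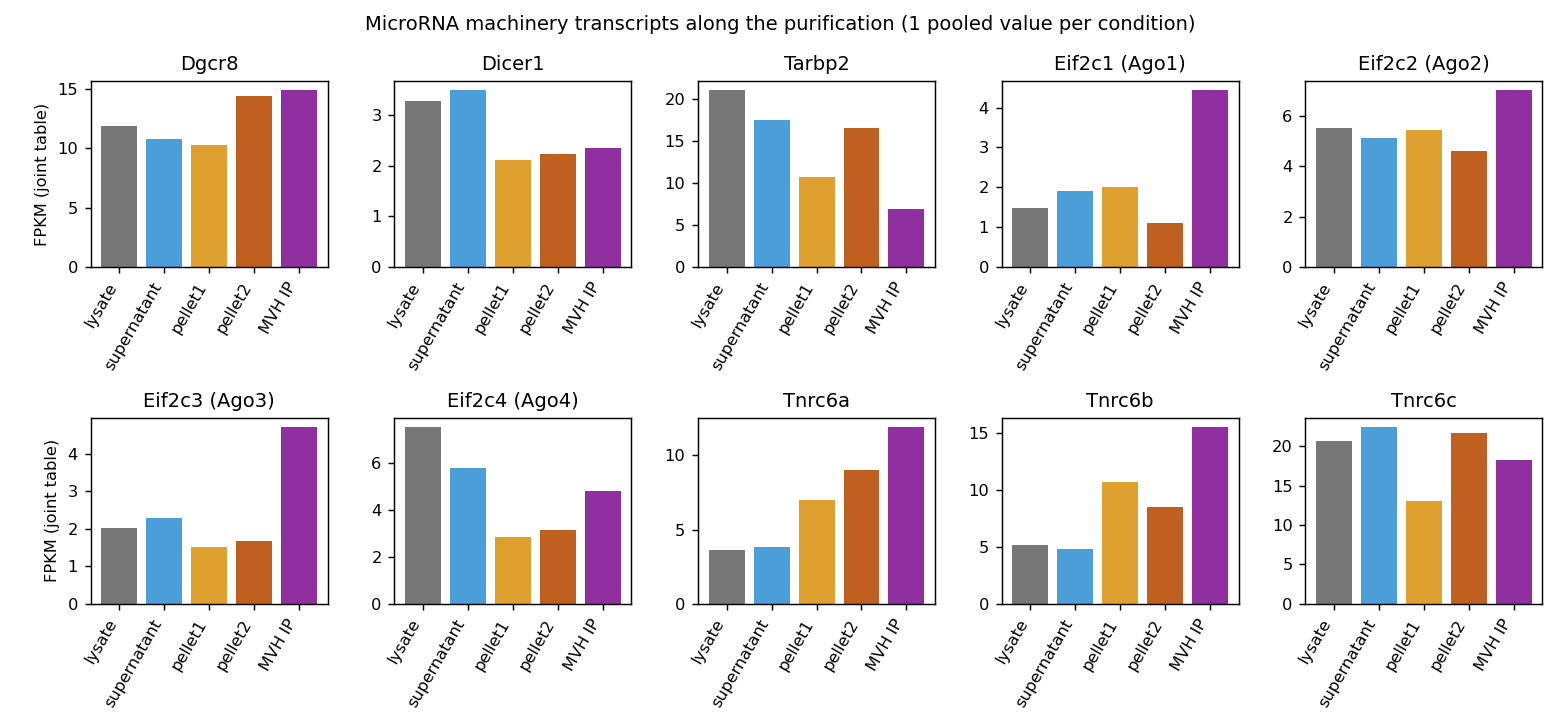
FPKM (vertical axis, starting at 0, a scale of its own for each gene) of the 10 genes in the 5 conditions of the joint table; each bar is the single deposited value, so there are no error bars. Tnrc6a and Tnrc6b are highest in MVH IP at 11.9 and 15.6 FPKM, while Tarbp2 is lowest there at 6.94.

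MVH IP was first set against lysate, the start of the purification. In the joint table Tnrc6a, Tnrc6b and Eif2c1 were at least 2-fold higher in MVH IP, Tarbp2 was lower, and the other 6 genes were within 2-fold. Of the 13855 genes that reached a mean of 1 FPKM, 47.3% were called higher and 7.53% lower, so 3 of 10 higher is no more than the general share. The median log2 ratio was 0.30 for the 10 genes and 0.92 for all genes, and 7 of the 10 lay below that median. Relative to it (centred), 0 of the 10 were 2-fold higher and 4 were lower (Tarbp2, Eif2c4, Dicer1 and Tnrc6c), against 18.7% and 20.6% of all genes. The highest value of a gene was in MVH IP for 6 of the 10, and for 67.2% of the 13693 genes that reached a mean of 1 FPKM over the 5 conditions.

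**Figure D2:**
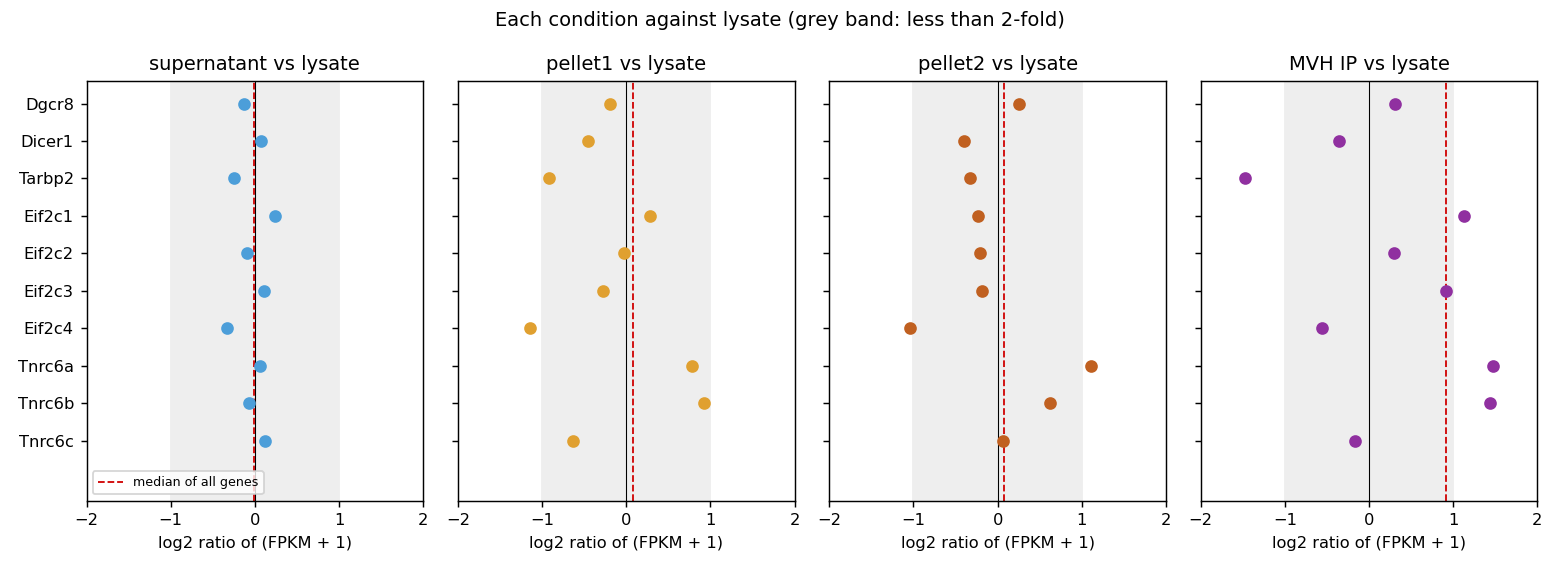
Log2 ratio of (FPKM + 1) of each condition over lysate (horizontal axis) for the 10 genes; the grey band is less than 2-fold and the dashed line is the median of all genes, 0.92 for MVH IP. Points lie close to 0 for supernatant and spread widest for MVH IP, from -1.47 for Tarbp2 to 1.48 for Tnrc6a.

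Of the nuclear step genes, Dgcr8 (16:18248976-18289261 in mm9, a span that the joint table gives to Dgcr8, Mir1306 and Trmt2a alike) varied least of the 10 genes in the joint table. It was at 11.9 FPKM in lysate and 10.8 in supernatant, at 10.3 in pellet1 and 14.4 in pellet2, and at 14.9 in MVH IP. Its highest value was 1.41-fold its lowest (as FPKM + 1), a range smaller than that of all but 4.25% of genes. This holds for the joint table: in the separate gene tables, scaled apart, Dgcr8 was at 5.36 FPKM in lysate and 34.8 in MVH IP, a 5.64-fold higher value and a call. Drosha, the nuclease of this step, was at 11.1 FPKM in lysate and 13.8 in supernatant, at 10.3 in pellet1 and 10.2 in pellet2, and at 12.7 in MVH IP. In the joint table Dgcr8 and Drosha thus differed from each other by less than 2-fold in every condition.

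The hairpin inside Dgcr8, named with the other overlapping features after their values were seen, did not keep the level of its host. Mir1306 was at 221 FPKM in lysate and 777 in supernatant, at 813 in pellet1 and 326 in pellet2, and at 365 in MVH IP. It was thus 3.50-fold above lysate in supernatant and 3.66-fold in pellet1, where Dgcr8 was slightly below lysate. In supernatant 0.751% of all genes were called higher, and 2.48% of protein-coding genes with a transcript below 1000 nt. In pellet1 these shares were 16.8% and 18.6%. The shares by length hold no microRNA genes, and the share of microRNA genes called was not counted. Of the 83 microRNA genes that reached a mean of 1 FPKM, 77 were listed at 0 in at least 1 condition and Mir1306 was among the 6 that were not. The hairpin is 79 nt long, far shorter than the 350 to 500 bp products cut from the gel, so its FPKM is poorly defined and its reads cannot be told from those of Dgcr8 mRNA. Trmt2a, a tRNA methyltransferase gene that overlaps Dgcr8, was at 3.64 FPKM in lysate and 1.19 in MVH IP.

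Dicer1, the cytoplasmic nuclease gene (12:105925952-105990162), was low throughout. It was at 3.28 FPKM in lysate and 3.49 in supernatant, at 2.12 in pellet1 and 2.24 in pellet2, and at 2.35 in MVH IP. The values fall into 2 levels, lysate and supernatant above, the pellets and MVH IP below. The highest was only 1.44-fold the lowest, and no call was made without centring. Centred on the median of all genes, Dicer1 was called lower in MVH IP against lysate (log2 ratio -1.27), as were 20.6% of all genes. The 3 genes with the most similar profile over the 5 conditions among 13693 genes were Lin7a, Clmn and Ermp1, at Euclidean distances of 0.07, 0.07 and 0.08 on the centred log2 scale, which is a description without a test.

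Tarbp2 (15:102348677-102354107), whose product TRBP holds the hairpin for Dicer, was lowest in MVH IP in the joint table. It was at 21.04 FPKM in lysate and 17.5 in supernatant, at 10.7 in pellet1 and 16.5 in pellet2, and at 6.94 in MVH IP. MVH IP was 2.78-fold below lysate and 2.21-fold below pellet2, while pellet1 was 1.88-fold below lysate, just short of a call. In the joint table Tarbp2 was at 6.42 times the FPKM of Dicer1 in lysate and at 2.95 times in MVH IP, and the separate tables, which do not list Dicer1, turn the direction of Tarbp2. In the authors' deposited table the q of Tarbp2 was 0.569 for MVH IP and lysate. Map3k12, a kinase gene that overlaps Tarbp2 in RefSeq (GRCm38.p6), was at 1.38 FPKM in lysate and 1.85 in MVH IP.

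The direction for Tarbp2 depends on the table. The separate gene tables, scaled apart from each other, list it at 8.85 FPKM in lysate and 81.7 in MVH IP, an 8.40-fold higher value. Only 3 of the 10 genes are in both separate tables. Dgcr8 was at 5.36 and 34.8 FPKM there and Tnrc6c at 7.85 and 15.5. The median log2 ratio of the 3806 genes in both was 2.03, so relative to it Tarbp2 stood 1.04 above, Dgcr8 0.46 above and Tnrc6c 1.13 below (-1.13). Of the 3792 genes that could be compared both ways, 49, or 1.29%, were called lower in the joint and higher in the separate tables as Tarbp2 was, and 51.3% had the same call in both. What makes the tables differ was not tested, so no direction is given for Tarbp2 in MVH IP.

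**Figure D3:**
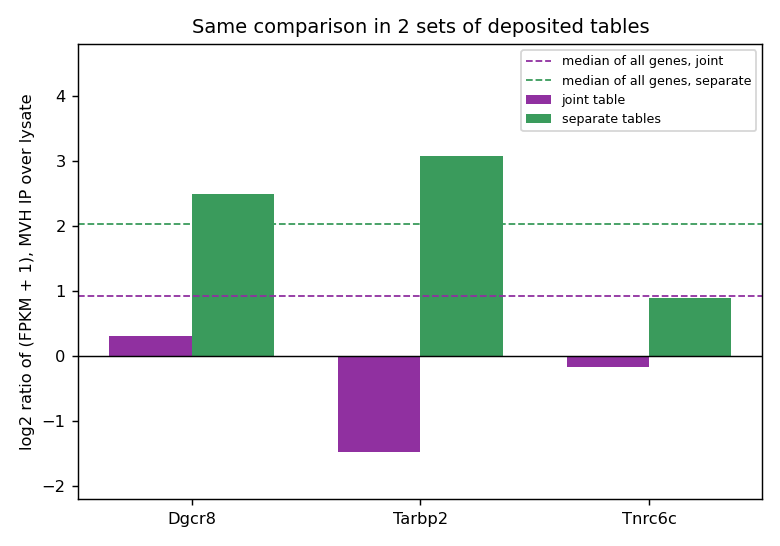
Log2 ratio of (FPKM + 1) of MVH IP over lysate (vertical axis) for the 3 genes found in both sets of deposited tables; each bar is 1 ratio of single values and the dashed lines are the medians of all genes, 0.92 and 2.03. Tarbp2 is at -1.47 in the joint table and 3.07 in the separate tables.

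The separate tables list genes from 5 FPKM upward, so a missing gene is below that floor or unlisted. MVH IP lists 5 of the 10 genes, lysate 3, round spermatids 1 and hetMIWI round spermatids 0. In MVH IP they were Tarbp2, Dgcr8, Tnrc6a at 19.9 FPKM, Tnrc6c and Eif2c2 at 14.3 FPKM. Tnrc6b, at 15.6 FPKM in MVH IP of the joint table, is absent from the separate one. The separate table holds 67.6% of the 10306 genes that reach 5 FPKM in MVH IP of the joint table, so such an absence is common.

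Tarbp2 was the 1 gene listed in sorted round spermatids, at 23.9 FPKM. That was 2.53-fold above the separate lysate value of 8.85 FPKM, where 22.6% of 4105 shared genes were called higher and 3.61% lower. It was 3.32-fold below the MVH IP value of 81.7 FPKM, where 75.4% of 3855 shared genes were called higher in MVH IP and 0.545% lower (20.3% and 21.5% centred). Against the joint lysate value of 21.04 FPKM the log2 ratio of round spermatids was 0.18, and against the joint MVH IP value of 6.94 FPKM the direction turned, at -1.65 for MVH IP over round spermatids. In hetMIWI round spermatids 12.7% of 2536 shared genes were called higher and 10.5% lower than in the other sorted round spermatids, and none of the 10 could be compared.

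The 4 Argonaute genes, which encode the proteins that hold the microRNA, did not follow one pattern. Eif2c3, Eif2c1 and Eif2c4 lie next to each other on chromosome 4 (4:126017922-126106786, 4:126112257-126145665 and 4:126166787-126210702), and Eif2c2 lies on chromosome 15 (15:72930274-73015377). Eif2c2, the gene of the only Argonaute with strong slicing activity, was at 5.51 FPKM in lysate and 5.12 in supernatant, at 5.42 in pellet1 and 4.62 in pellet2, and at 7.02 in MVH IP. In the joint table its highest value was 1.43-fold its lowest, and it stayed within 2-fold in every comparison. In the separate tables Eif2c2 was at 14.3 FPKM in MVH IP and unlisted in lysate, so they give no fold. By profile the 3 nearest genes to Eif2c2 were Urb1, Grip1 and Ddx19b, at distances of 0.08, 0.09 and 0.09.

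Eif2c4, an Argonaute gene known for high expression in male germ cells, led the family in lysate and lost that place in the pellets. It was at 7.53 FPKM in lysate and 5.76 in supernatant, at 2.86 in pellet1 and 3.14 in pellet2, and at 4.81 in MVH IP. It was 2.21-fold below lysate in pellet1 and 2.06-fold below in pellet2, where 9.41% and 7.21% of all genes were called lower. Eif2c1 was at 1.48 FPKM in lysate and 1.91 in supernatant, at 2.02 in pellet1 and 1.11 in pellet2, and at 4.44 in MVH IP. Eif2c3 was at 2.03, 2.28, 1.503, 1.68 and 4.72 FPKM in the same order. Both were highest in MVH IP, as were 67.2% of all genes. They were 2.58-fold and 2.14-fold above pellet2, where 39.9% of all genes were called higher. Eif2c3 was 1.89-fold above lysate, short of a call and close to the median of all genes (log2 ratio 0.91 against 0.92). The authors' deposited table marks Eif2c1 as not tested in all 10 pairs of conditions and Eif2c3 in 6 pairs.

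As a family the Argonaute genes summed to 16.6 FPKM in lysate and 15.1 in supernatant, 11.8 in pellet1 and 10.5 in pellet2, and 20.99 in MVH IP. Eif2c4 made up 45.5% of that sum in lysate and 22.9% in MVH IP, whereas Eif2c1 and Eif2c3 made up 8.93% and 12.3% in lysate and 21.2% and 22.5% in MVH IP. Eif2c2 held 33.3% and 33.4%. These shares are of single values and carry no error.

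A piRNA cluster shares the span of Eif2c2 in the joint table. It was at 5.36 FPKM in lysate and 4.99 in supernatant, at 4.58 in pellet1 and 7.06 in pellet2, and at 16.1 in MVH IP, 2.69-fold above lysate, against 1.23-fold for Eif2c2. The round spermatid piRNA table places it at 15:72920822-73015270, from below the first base of that span to just short of its last, and lists it at 0 FPKM. Nothing in the sources used here says whether reads were counted by strand, so reads of the cluster and of Eif2c2 cannot be told apart. The round spermatid table of other RNAs holds an entry labelled Eif2c3 at 340 FPKM, but its identifier belongs to Gm22033, of class miRNA. Its span, 4:126008948-126106800, covers that of Eif2c3. Whether it holds reads of Eif2c3 was not tested, so it is not used as a measure of Eif2c3 mRNA.

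The GW182 genes, whose products bind Argonaute and recruit the deadenylases, split into a pair and a single gene. Tnrc6a (7:130267399-130338810) was at 3.64 FPKM in lysate and 3.85 in supernatant, at 6.97 in pellet1 and 9.03 in pellet2, and at 11.9 in MVH IP. Tnrc6b (15:80541743-80771516) was at 5.13, 4.85, 10.7, 8.47 and 15.6 FPKM in the same order. For both, lysate and supernatant were the lowest, the pellets lay between and MVH IP was the highest. Against lysate Tnrc6a was 2.78-fold higher in MVH IP and 2.16-fold in pellet2, where 12.5% of all genes were called higher, and 1.72-fold in pellet1. Tnrc6b was 2.70-fold higher in MVH IP, 1.55-fold in pellet2 and 1.91-fold in pellet1, where 16.8% of all genes were called higher.

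Against pellet2, the IP input by the protocol but not by the sample types, Tnrc6a was 1.29-fold and Tnrc6b 1.75-fold higher in MVH IP, both short of a call. On the log2 scale the difference of MVH IP from pellet2 was 0.37 for Tnrc6a and 0.81 for Tnrc6b, with a median of 0.79 for all genes, and that of pellet2 from lysate was 1.11 and 0.63. Between MVH IP and pellet2, Eif2c1 and Eif2c3 were called higher and Tarbp2 lower, against 39.9% and 5.78% of 13808 genes (0 and 2 of the 10 centred, against 14.2% and 13.7%), and the median of the 10 genes was 0.43. In the authors' deposited table Tnrc6b had q = 0.0950 and Tnrc6a q = 0.234 for MVH IP and lysate. Across the 10 pairs of conditions, Cuffdiff's unadjusted p was under 0.05 in 6 of 100 results for these genes, all for Tnrc6a or Tnrc6b. Each of the 6 set lysate or supernatant against MVH IP or pellet1, and the share of all genes at that p was not counted. Of the 100 results 22 were not tested, and Cuffdiff's q was under 0.05 in 0. At that q the table calls 5.3% of all genes higher and 0.0866% lower in MVH IP against lysate, and 0.637% and 0.101% against pellet2. Against lysate it calls 1.67% higher and 0.0775% lower in pellet1, 0.742% and 0.0232% in pellet2, and 0 and 0.00783% in supernatant.

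Tnrc6c (11:117515603-117624753) was at 20.7 FPKM in lysate and 22.5 in supernatant, at 13.0 in pellet1 and 21.6 in pellet2, and at 18.3 in MVH IP. It was the lowest in pellet1 and within 2-fold of lysate in every condition. Of the summed FPKM of the 3 genes Tnrc6c made up 70.2% in lysate and 72.1% in supernatant, 42.4% in pellet1 and 55.3% in pellet2, and 39.9% in MVH IP. The sum itself was 29.4 FPKM in lysate and 45.7 in MVH IP. The ratio of the GW182 sum to the Argonaute sum was 1.78 in lysate and 2.07 in supernatant, 2.60 in pellet1 and 3.71 in pellet2, and 2.18 in MVH IP. The most similar profiles to that of Tnrc6a were those of Fam40b, Ash1l and Mlkl, at distances of 0.09, 0.09 and 0.10, and its distance to Tnrc6b was 0.47.

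**Figure D4:**
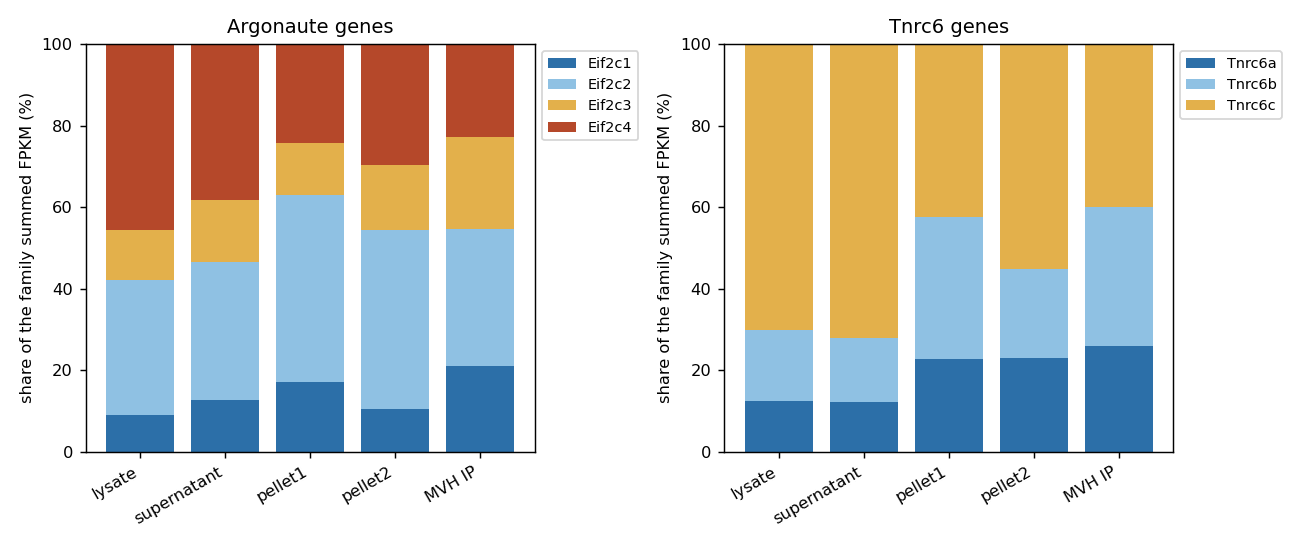
Share of each gene in the summed FPKM of the 4 Argonaute genes (left) and the 3 Tnrc6 genes (right) in percent, by condition, from single deposited values. Tnrc6c holds 70.2% in lysate and 39.9% in MVH IP, and Eif2c4 45.5% and 22.9%.

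Supernatant, the soluble fraction, was close to lysate for all 10 genes. The largest difference either way was that of Eif2c4, 1.26-fold lower, and 0 of 10 genes were called, against 0.751% of 12777 genes higher and 1.46% lower. Pellet1 was lowest of the 5 conditions for 5 of the 10 genes (Dgcr8, Dicer1, Eif2c3, Eif2c4 and Tnrc6c) and for 24.9% of all genes. Against lysate 1 of 10 was called lower in pellet1 and 0 higher, against 9.41% and 16.8% of all genes, with a median log2 ratio of -0.23 against 0.07 for all genes. In pellet2 1 was higher and 1 lower, against 12.5% and 7.21% of all genes, with medians of -0.20 and 0.08.

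These genes have long transcripts. In GENCODE M21, 8 of the 10 have a transcript of at least 6000 nt, against 11.1% of the protein-coding genes with a length. The longest is that of Tnrc6b, at 17332 nt with a 3′ untranslated part of 11612 nt. Dgcr8 has 4320 nt and Tarbp2 1523 nt. Among all genes of at least 6000 nt the median log2 ratio of MVH IP over lysate was 0.76, with 39.5% called higher and 4% lower. Among genes of 1000 to 2000 nt it was 1.03, with 50.9% and 8.97%. Longer genes thus had lower ratios of MVH IP over lysate. For pellet2 over lysate length went the other way, with a median of -0.08 below 1000 nt and 0.15 from 6000 nt. The part of length in the values of these genes was not tested.

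The wider pathway held 42 other genes, of which 38 reached a mean of 1 FPKM in the comparison of MVH IP with lysate; Adar, Lin28a, Trim71 and Wtip did not. Of the 38, 13 were higher and 3 lower (3 and 15 centred), against 47.3% and 7.53% of all genes, with a median of 0.18. The 3 largest ratios were those of Mov10, an RNA helicase that binds Argonaute, at 15.5 FPKM in MVH IP against 1.37 in lysate, Limd1, a LIM protein of the silencing complex, at 40.1 and 6.09, and Adarb1, an adenosine deaminase of double-stranded RNA, at 17.7 and 3.02. The 3 smallest were those of Trim32, a ubiquitin ligase, at 0.478 and 4.07 FPKM, Ddx17, a helicase of the Drosha complex, at 66.6 and 155, and Cnot1, the scaffold of the CCR4-NOT deadenylase, at 54.5 and 116. For Cnot1 the joint table thus gave a 2.11-fold lower value. Other deadenylase genes on the list, named after their values were seen, were not below lysate. Parn was 2.89-fold higher, and Pan2 and Pan3, 1.08-fold and 1.24-fold higher, were not called. On the log2 scale Parn, at 1.53, lay above the median of all genes (0.92). Pan2 and Pan3, at 0.11 and 0.31, lay below it, as Cnot1 did. The separate tables, scaled apart, list Cnot1 with 52.3 FPKM for lysate against 40.8 for MVH IP, a difference short of 2-fold.

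Against pellet2, 9 of 38 of these genes were higher and 0 lower in MVH IP (2 and 5 centred), where 39.9% and 5.78% of all genes were called (14.2% and 13.7% centred). Against lysate, supernatant had 0 of 39 called, where 0.751% of all genes were higher and 1.46% lower. Pellet1 had 3 of 37 higher with 5 lower, beside 16.8% and 9.41% of all genes. Pellet2 had 3 of 38 higher with 1 lower, beside 12.5% and 7.21%. The 3 higher genes in both pellets were Adarb1, Limd1 and Parn, a deadenylase, named after their values were seen. Parn was at 8.28 FPKM in lysate and 9.29 in supernatant, at 18.9 in pellet1 and 19.6 in pellet2, and at 25.8 in MVH IP, the same order of conditions as Tnrc6a.

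**Figure D5:**
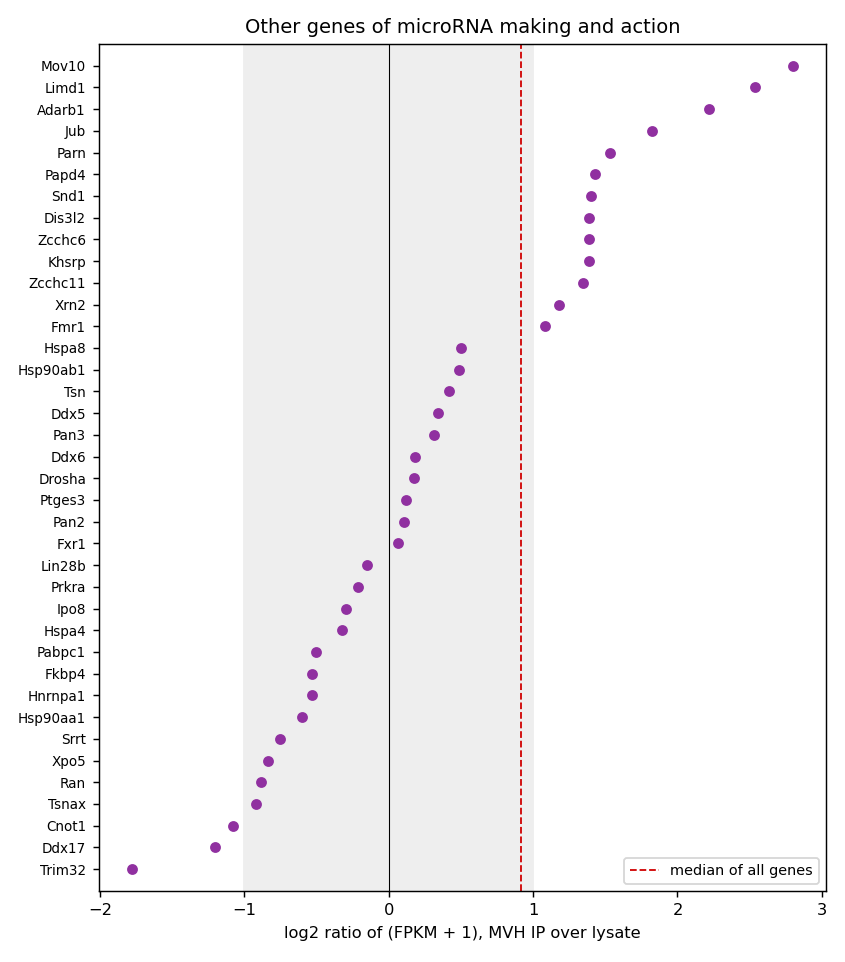
Log2 ratio of (FPKM + 1) of MVH IP over lysate (horizontal axis) for the 38 other genes of microRNA making and action, sorted; each point is 1 ratio of single values, the grey band is less than 2-fold and the dashed line is the median of all genes, 0.92. Mov10, at 2.80, and Trim32, at -1.78, are the ends.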

How the data were processed

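RNA of 14 libraries was sequenced by the authors after priming with not-so-random hexamers, per the labels' protocols. The submitters' processing notes name TopHat, Cuffdiff and build mm9; the sources used here give no version, filter, strand use or depth. The deposited values are FPKM, as the authors' file headers name them; the unit of the joint table was taken from its Cuffdiff layout, and that of the round spermatid table of other RNAs, which has no header, from its values. The p-values and q-values are Cuffdiff's, deposited by the authors per the file headers. MVH IP and round spermatid values were pooled by the authors, so values of single libraries are not used here.

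From the files, log2 ratios of (FPKM + 1) were computed with Python 3.11.15, pandas 2.3.3 and numpy 2.4.6. This was done for gene symbols whose mean reached 1 FPKM, with calls at 2-fold. The code was run on simulated data with large changes, little noise and no shift of all genes. That run does not test the calls in these data. With 1 value per condition there is no test. Alternatives were a pseudocount of 0.1, no filter, a mean of 5 FPKM, centring on the median of all genes, the authors' q under 0.05, and the other table. Starts in the files were taken as counted from 0 and are printed counted from 1. Of 19377 genes compared, end minus start equals the RefSeq gene length for 6282, and end minus start plus 1 does so for 433. The other genes fit neither. Named genes were all 10 members, the 3 largest and 3 smallest ratios past 2-fold of the wider list with Drosha, and the 3 nearest profiles to Dicer1, Eif2c2 and Tnrc6a. The number of per-sample columns left out is 1, a small RNA column. The members and lists were chosen with earlier results of these data known.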

Additional observations from a re-analysis of the deposited data

How the results depend on the processing

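No paired analysis was possible because each condition has 1 pooled or single value, so the replicate numbers of the labels carry no columns, and no replicate could be left out. Centred on the median of all genes, MVH IP against lysate gave 0 genes higher and 4 lower in place of 3 and 1, and MVH IP against pellet2 gave 0 and 2 in place of 2 and 1. With the authors' q under 0.05 as the call, 0 genes were higher or lower in MVH IP against lysate, MVH IP against pellet2, pellet1 and pellet2. At a mean of 5 FPKM 0 genes were higher in MVH IP against pellet2, since Eif2c1 and Eif2c3 were then not measured. With a pseudocount of 0.1 FPKM, 1 gene was higher in pellet1 (Tnrc6b, log2 ratio 1.04), and Eif2c3 reached 1.18 in MVH IP against lysate. Across the separate tables, 2 of 3 genes were higher and 0 lower in MVH IP against lysate: Tarbp2 turned to 3.07, and Dgcr8, at 0.30 in the joint table, was called at 2.49. For round spermatids against lysate, the joint lysate value left 0 genes higher in place of 1. For MVH IP against round spermatids, 0 genes were higher after centring (Tarbp2 at -0.12), and with the joint MVH IP value 0 were higher and 1 lower (Tarbp2 at -1.65). The cause of the differences between tables was not tested. Of the 80 counts under alternatives, 62 stayed within 1.5 times, but this left out how many genes were measured. For MVH IP against lysate, 2 of 7 genes higher at a mean of 5 FPKM thus passed beside 3 of 10. Some of the 62 could not move. For hetMIWI round spermatids 0 of the 10 genes could be compared under any setting. In the joint table all 10 already passed the filter, so taking it away could change no count there. Low levels limit Eif2c1, Eif2c3 and Dicer1 most, and depth is unknown.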
